A study of Mus musculus with 19 samples.

Results

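A set of 8 genes that mark oligodendrocytes, the myelin-forming glia of the central nervous system, was followed through RNA sequencing libraries of the mouse cochlea. The genes were Olig1, Olig2, Mog, Mobp, Opalin, Ermn, Hapln2 and Klk6, taken by symbol. All 8 were found among the 18639 gene symbols of the table. The study compared macrophages with the other cells of the cochlea at young and old adult age. All animals were CX3CR1 GFP/+ mice, which carry green fluorescent protein (GFP) at the locus of the fractalkine receptor, a gene that macrophages express. Dissociated tissue was sorted by GFP into positive cells, called macrophages, and negative cells, called nonmacrophages, so that the negative sort held every other cell type together. Each isolate came from 1 mouse. From the whole cochlea there were 4 old macrophage, 2 young macrophage, 4 old nonmacrophage, 4 young nonmacrophage and 1 young unsorted libraries. From each of the auditory nerve and the lateral wall there were 1 young macrophage and 1 young nonmacrophage library. Young meant 1.5 months and old 12 to 14 months.

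Oligodendrocytes wrap axons of the brain and of the central stump of the auditory nerve. Schwann cells make the myelin of the peripheral part of the nerve and around spiral ganglion neurons, and the 2 kinds of glia meet at a transition zone inside the nerve. Olig1 and Olig2 are basic helix-loop-helix transcription factors of the oligodendrocyte lineage. Mog, myelin oligodendrocyte glycoprotein, sits on the outer face of central myelin. Mobp, an oligodendrocyte basic protein, lies in compact central myelin, and Opalin is a membrane protein of the same glia. Ermn encodes ermin, an actin-binding protein of myelinating oligodendrocytes. Hapln2 encodes a link protein of the hyaluronan matrix at central nodes of Ranvier, and Klk6 a secreted serine protease that oligodendrocytes make.

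By the reference annotation (GENCODE M21, mm10), Olig2 lay at chr16:91225457-91228677 and Olig1 at chr16:91269772-91271933, both on the plus strand. Mog lay at chr17:37010743-37023398 on the minus strand, and Mobp at chr9:120149707-120181484 on the plus strand. Opalin was at chr19:41061710-41077113 and Ermn at chr2:58045113-58052864, both on the minus strand. Hapln2 was at chr3:88021750-88027583 on the minus strand, and Klk6 at chr7:43824499-43832030 on the plus strand. Exons of Ermn share bases with Galnt5, and those of Olig1 with the lincRNA Gm15966, each on the opposite strand. No use of strand in the counting is stated, so reads over those shared bases could not be told apart. Mobp shares exon bases with the processed transcript Gm38642 on its own strand.

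The RefSeq promoter table (build GRCm38.p6) held 7 of the 8 genes. Olig1 was not among them. The 250 bases before the RefSeq start are shown for Mobp, Mog, Klk6 and Hapln2. The ratio of Mobp to Mog varied widely between libraries, whereas Mog and Klk6 kept a near constant ratio. Hapln2 was the gene closest to the average of the 8, of which it is part. For Mobp, Klk6 and Hapln2 the RefSeq start lay inside the GENCODE span given above, so these windows run partly into that span. Capitals mark matches, on either strand, to ACAAAG (reverse complement CTTTGT, the core that SOX factors such as SOX10 bind), to CAGCTG (an E-box, the class of site that OLIG factors bind) or to CTGGCAC (reverse complement GTGCCAG, a MYRF-type site). These motifs were chosen with earlier values of the genes known.
Mobp, chr9:120149492-120149741, plus strand: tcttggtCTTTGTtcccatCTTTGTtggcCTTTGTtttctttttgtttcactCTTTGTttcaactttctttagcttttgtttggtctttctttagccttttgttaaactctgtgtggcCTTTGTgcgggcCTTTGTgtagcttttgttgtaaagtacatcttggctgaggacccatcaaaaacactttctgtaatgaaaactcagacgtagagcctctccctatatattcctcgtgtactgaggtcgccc
Mog, chr17:37023399-37023648, minus strand: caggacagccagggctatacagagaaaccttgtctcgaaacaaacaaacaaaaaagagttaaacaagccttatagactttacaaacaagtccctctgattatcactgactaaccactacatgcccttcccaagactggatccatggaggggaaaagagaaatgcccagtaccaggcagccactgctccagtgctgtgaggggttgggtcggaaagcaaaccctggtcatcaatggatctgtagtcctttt
Klk6, first start, chr7:43824294-43824543, plus strand: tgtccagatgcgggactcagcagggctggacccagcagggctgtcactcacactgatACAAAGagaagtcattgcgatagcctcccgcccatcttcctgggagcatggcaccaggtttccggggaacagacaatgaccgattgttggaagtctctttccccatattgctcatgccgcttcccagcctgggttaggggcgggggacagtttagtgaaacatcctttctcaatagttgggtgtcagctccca
Hapln2, chr3:88027512-88027761, minus strand: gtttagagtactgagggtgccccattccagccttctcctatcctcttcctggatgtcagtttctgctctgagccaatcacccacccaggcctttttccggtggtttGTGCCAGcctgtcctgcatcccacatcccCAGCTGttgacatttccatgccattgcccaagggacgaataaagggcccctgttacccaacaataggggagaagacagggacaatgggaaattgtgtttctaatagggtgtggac

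The Mobp sequence held 6 matches to ACAAAG or CTTTGT, and among 32851 promoters of the same length it was the only 1 with 6 or more. At least 1 such match stood in 16.46% of all promoters, and among the other genes in Opalin (1 match) and at the first start of Klk6 (1 match). The Mog, Ermn, Olig2 and Hapln2 windows held none. CAGCTG stood in the Hapln2 window alone among the 7 genes, as it did in 13.0% of all promoters. The same window held the only GTGCCAG of the 7, a motif present in 4.19% of all promoters. A match is a run of letters and not a measured binding site.

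The libraries held 20.6 to 71.6 M reads (M, mega). Old libraries had 50.6 to 71.6 M, and young sorted whole-cochlea libraries 24.9 to 35.1 M, except young nonmacrophage replicate 14 with 60.2 M. Age and depth therefore nearly coincide. Values are normalized reads, which are whole reads divided by a library factor. A count of 0 was given a limit of 3 reads, which stand for 1.38 to 5.33 normalized reads. As a check of the sort, all 13 measured macrophage genes of a fixed list passed the test below as higher in macrophages at both ages. Neuronal RNA was also high in the macrophage sort of the whole cochlea. The spiral ganglion neuron list, 16 genes, had 12 that were higher in macrophages at old and 11 at young age (1 was lower). Snap25, a synaptic protein, stood at 74052 to 155783 normalized reads in the 6 whole-cochlea macrophage libraries. In the nerve the list summed to 38119 normalized reads in macrophages and 36092 in nonmacrophages, with mean log2 levels of 9.00 and 10.06. In the lateral wall the sums were 893 and 2870. The part of neurons or their RNA in the results on the 8 genes was not tested. In sorted bulk samples, fewer cells of a type and less RNA per cell cannot be told apart.

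**Figure D1:**
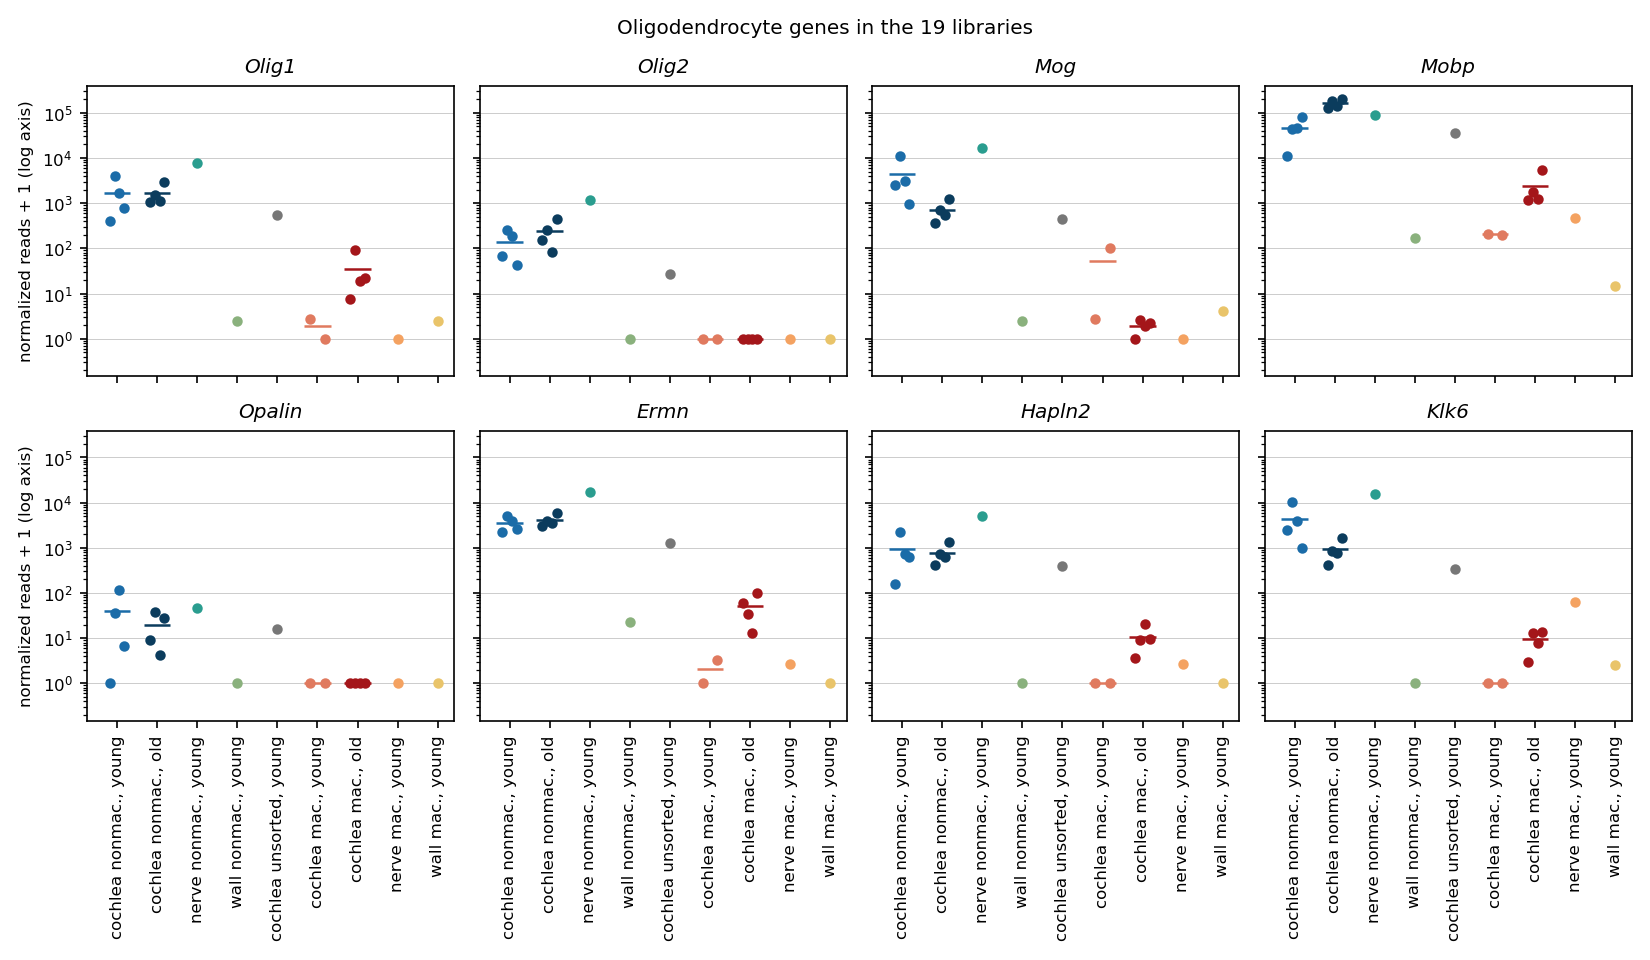
Normalized reads plus 1 (log axis) of the 8 genes in the 19 libraries, 1 point per library, grouped by tissue, sort and age (mac., macrophages; nonmac., nonmacrophages). Lines are group means where a group has several libraries. The nerve nonmacrophage point is the highest for 6 genes, and the macrophage and lateral wall points lie far below it.

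The auditory nerve carried these transcripts and the lateral wall almost none. Mog had 16597 normalized reads in the young nerve nonmacrophage library and 1.53, a single read, in the lateral wall one. Mobp had 88626 and 167, and Ermn 16983 and 21.4. The lateral wall is the tissue of the stria vascularis and spiral ligament.

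For the lineage factors, Olig1 stood at 7885 normalized reads in the nerve and 1.53 in the wall. Olig2 stood at 1183 in the nerve and had no read in the wall. Hapln2 (5054), Klk6 (15419) and Opalin (44.8) also had reads in the nerve and none in the wall. All 8 genes were therefore past a log2 difference of 2 in favour of the nerve, against 11.3% of the 16899 genes compared, with 8.33% past it toward the wall. These are single libraries, so the differences have no replicate check.

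The nerve-to-wall ratio was 532 for Mobp (95% counting interval 441 to 648) and 793 for Ermn (473 to 1451). For Mog it was 10853 and for Olig1 5156, each against 1 read, with intervals from 1947 and from 925. Set against 3 reads in the wall, the nerve had 3361-fold more Klk6, 1102-fold more Hapln2, 258-fold more Olig2 and 9.75-fold more Opalin. The exact 95% lower limits were 2733, 895, 209 and 7.48 in that order. Intervals and limits cover counting error only.

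Of 25 further oligodendrocyte genes, 22 passed the same log2 difference of 2 toward the nerve and none toward the wall. Of 12 oligodendrocyte precursor genes, 7 did so toward the nerve and 1 toward the wall. The counts were 12 and 0 of 16 for Schwann cell genes, 13 and 0 of 16 for spiral ganglion neuron genes, and 4 and 2 of 12 for astrocyte genes. Central glial, peripheral glial and neuronal genes were thus all present in the nerve isolate.

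Within the nerve nonmacrophage library, levels per kilobase of exon ran from Mobp (12940 normalized reads per kb) through Klk6 (10191) and Mog (9739.8) to Ermn (4672), Olig1 (3647) and Hapln2 (2132). Olig2 (468) and Opalin (15.2) were the lowest. In the whole cochlea the order was similar at young age, with Mobp at 6714 ± 4237 normalized reads per kb (SD, n = 4), Klk6 at 2942 ± 2741 and Mog at 2614 ± 2674. The next were Ermn at 959 ± 364, Olig1 at 794 ± 756 and Hapln2 at 402 ± 390. The means of neighbours in this order lay closer than their spread between libraries, but all genes were measured in the same libraries. Within each of the 4 young libraries Klk6 was above Mog and Olig1 above Hapln2. Mobp and Klk6, Mog and Ermn, and Ermn and Olig1 changed places in some library.

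At old age Mobp stood apart, at 24159 ± 4896 normalized reads per kb (SD, n = 4). Ermn followed at 1120.4 ± 328, Olig1 at 767 ± 407, Klk6 at 609 ± 343, Mog at 423 ± 224 and Hapln2 at 330.2 ± 167. From Ermn to Hapln2, the means of neighbours differed by less than the larger of their SDs. Within each of the 4 old libraries, however, these genes stood in this same order. Olig2 stood at 54.7 ± 39.8 in young and 93.3 ± 63.5 in old nonmacrophages. Opalin was the lowest of the 8 in both groups, at 13.3 ± 18.1 in young and 6.41 ± 5.46 in old nonmacrophages.

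The nerve library had more of 7 genes than each of the 4 young whole-cochlea nonmacrophage libraries. Its level over their mean was 8.55-fold for Olig2, 5.31 for Hapln2, 4.87 for Ermn, 4.59 for Olig1, 3.73 for Mog and 3.46 for Klk6. Mobp was only 1.93-fold and Opalin 1.14-fold higher. Over all 19 libraries the nerve nonmacrophages were the highest for Olig1, Olig2, Mog, Ermn, Hapln2 and Klk6. For Mobp the 4 old whole-cochlea nonmacrophage libraries were higher still. The share of all genes for which the nerve library ranked highest was not determined in either comparison. Whether such ranks are particular to this gene set was therefore not tested.

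In the young unsorted cochlea, Mobp had 36666 normalized reads, Ermn 1269, Olig1 538, Mog 440.4, Hapln2 389.9, Klk6 333, Olig2 26.0 and Opalin 15.3. Against that library the nerve nonmacrophages had 46.3-fold more Klk6, 45.5-fold more Olig2 and 37.7-fold more Mog. They had only 2.42-fold more Mobp (2.38 to 2.45) and 2.93-fold more Opalin (1.40 to 6.67). The counting intervals of Mobp and Opalin overlap, and both lie below the ratios of the other 6 genes. Of all genes, 4.64% of 17715 were past a log2 difference of 2 in that direction.

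Whether the macrophage sort carried oligodendrocyte RNA was asked first in old cochleae. All 8 genes were lower in old macrophages than in old nonmacrophages (limma, adjusted p under 0.05), where 9.36% of 18441 genes tested were lower, 9.25% higher and 18.6% differed in either direction. The values of the groups did not overlap for any of the 8, as was so for 30% of all genes in that direction. The median log2 difference of the 8 was -6.51, and that of all genes -0.19.

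Among the lineage factors, Olig2 had 152, 257, 84.0 and 452 normalized reads in old nonmacrophage replicates 10, 11, 18 and 19, and no read in any macrophage library. It was at least 140-fold higher in the nonmacrophages, with a log2 difference of -7.62 (SE 0.72, limma adjusted p = 1.9e-05). Olig1 had 1056, 1514, 1122 and 2944 in the nonmacrophages and 6.41, 89.8, 18.4 and 20.7 in macrophage replicates 1, 7, 12 and 17. Replicate 7 was the highest of the macrophage libraries and still lay far below every nonmacrophage library. The difference for Olig1 was -6.04 (SE 0.86, limma adjusted p = 0.00037).

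Among the myelin proteins, Mog had 369.6, 709.5, 550.0 and 1255 normalized reads in old nonmacrophages and 0, 1.63, 0.92 and 1.22 in old macrophages. Its log2 difference was -8.48 (SE 1.02, limma adjusted p = 0.00011). Mobp had 130049, 186646, 144570.0 and 200600.0 against 1184, 1730.4, 1212 and 5496. Among the macrophage libraries replicate 17 held the most, and all 4 lay below every nonmacrophage library. Its difference was -6.40 (SE 0.56, limma adjusted p = 1.3e-05).

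Opalin was scarce: 8.00, 37.9, 3.34 and 26.3 normalized reads in old nonmacrophages and no read in old macrophages, so at least 11.2-fold lower there. Its log2 difference of -3.83 (SE 1.19) passed narrowly (limma adjusted p = 0.040), and leaving out a library, any of the 4 macrophage ones or nonmacrophage replicate 10, 11 or 19, ended the call (adjusted p 0.068 to 0.114). So did pseudocount 10 (-1.35, limma adjusted p = 0.16), quantile normalization (limma adjusted p = 0.074) and thinning to 20 M reads (limma adjusted p = 0.054), which left 7 of the 8. Ermn had 3022, 3922, 3571 and 5775 normalized reads in the nonmacrophages and 58.4, 33.2, 12.0 and 101 in the macrophages, a log2 difference of -6.61 (SE 0.63, limma adjusted p = 1.9e-05). Macrophage replicate 17 was again the highest, and replicate 12 the lowest.

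Hapln2 had 426, 738, 623 and 1345 normalized reads in old nonmacrophages and 2.57, 8.16, 19.4 and 8.54 in old macrophages, a log2 difference of -6.33 (SE 0.81, limma adjusted p = 0.00017). Klk6, the secreted protease, had 422, 862, 752 and 1648 against 1.92, 12.0, 6.91 and 12.8, a difference of -6.68 (SE 0.77, limma adjusted p = 7.5e-05). Old nonmacrophage replicate 19 had the highest value of its group for 7 of the 8 genes, and replicate 11 for Opalin. The share of all genes for which replicate 19 ranked highest was not determined.

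Young cochleae gave the same direction. In young macrophages 7 of the 8 genes were lower than in young nonmacrophages (limma), where 22.3% of all genes were lower, 9.18% higher and 31.5% differed in either direction. The groups did not overlap for those 7, as for 18.6% of all genes. The median log2 difference of the 8 was -8.41, or -7.64 with the genes that had no read in young macrophages set at their bounds, and that of all genes was -0.61. With library quality weights 0 of the 8 passed, although the differences were as large (Mobp -7.75, limma adjusted p = 0.068, and Ermn -11.00, limma adjusted p = 0.065). Far fewer of all genes passed with these weights as well. With quantile normalization the calls over all genes were 2361 higher and 2797 lower, against 1693 and 4121.

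Young nonmacrophage replicates 2, 5, 6 and 14 held 2551, 11152, 3133 and 978 normalized reads of Mog, and young macrophage replicates 9 and 15 held 1.76 and 103. The Mog difference was -7.50 (SE 1.25, limma adjusted p = 0.00054), -4.88 without macrophage replicate 9 and -10.12 without replicate 15. For Mobp the values were 11358, 44427, 45759.8 and 82381 against 212 and 199.8, a difference of -7.49 (SE 0.69, limma adjusted p = 3.2e-06). Replicate 5 was the highest nonmacrophage library for Mog and replicate 14 for Mobp.

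Klk6 had 2494, 10416, 3891 and 1005 normalized reads in young nonmacrophages and none in young macrophages, so it was at least 1029-fold lower in the latter (limma adjusted p = 9.7e-07). Hapln2 had 155, 2285, 744 and 627 and none, at least 220.2-fold lower (limma adjusted p = 1.2e-05). Olig2 had 67.6, 255, 189 and 41.7 and none, at least 32.0-fold lower (limma adjusted p = 6.9e-05). No read of these 3 genes was found in either young macrophage library.

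Ermn had 2244, 5116, 3999 and 2590.0 normalized reads in young nonmacrophages and 0 and 2.26 in young macrophages (limma adjusted p = 3.6e-07). Olig1 had 398, 4034, 1669 and 766 against 1.76 and 0 (limma adjusted p = 1.7e-05). With 2 reads and 1 read in young macrophages, the ratios of read rates were 2371 for Ermn (95% counting interval 656 to 19578) and 2173 for Olig1 (390 to 85836). Opalin had 0, 35.4, 116 and 5.88 against 0 and 0, which overlap, and did not pass (limma, -3.71, SE 1.46, 95% interval -6.86 to -0.56, adjusted p = 0.068). Without nonmacrophage replicate 2, which had no Opalin read, it did (adjusted p = 0.0057).

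The single nerve macrophage library held 471 normalized reads of Mobp (285 reads) and 62.8 of Klk6 (38 reads), 1.65 each of Ermn and Hapln2, and none of the other 4. The lateral wall macrophage library held 13.8 of Mobp, 3.06 of Mog, 1.53 of Olig1 and of Klk6, and none of the rest. Klk6 was higher in the nerve macrophages than in any other macrophage library. Nerve nonmacrophages had 188-fold more Mobp than nerve macrophages (168 to 212) and 246-fold more Klk6 (179 to 347).

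**Figure D2:**
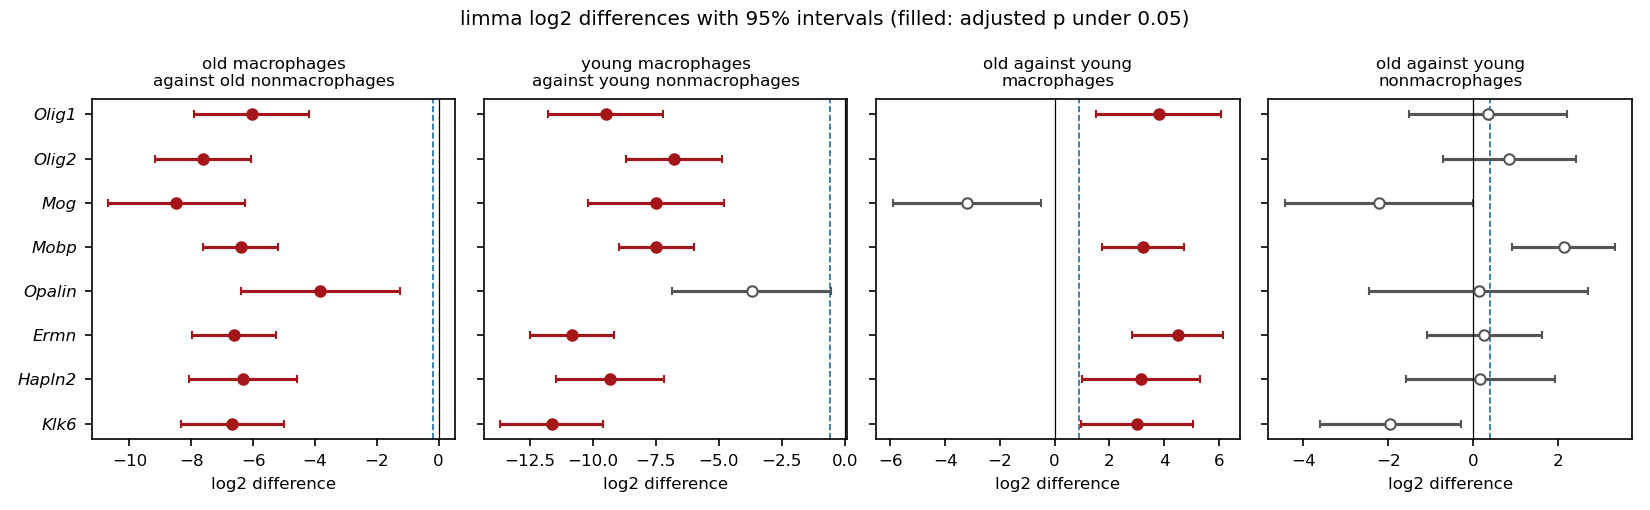
Log2 differences of the 8 genes with 95% intervals in 4 comparisons of whole-cochlea groups (limma; filled points have an adjusted p under 0.05), with the median of all genes as a dashed line. All 8 points are filled in the old sort comparison, 7 in the young one, 5 in the age comparison of macrophages and none in that of nonmacrophages. Olig2 and Opalin had no read in macrophages and have no point in their age comparison.

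As a share of the nonmacrophage level, the macrophage sort held little of these genes. Among the 7 with a nonmacrophage mean of at least 100 normalized reads, old macrophages held 0.131% (Mog) to 2.04% (Olig1), with a median of 1.23%. Olig2 entered at its upper bound of 0.716%. In young macrophages the 7 ran from 0.0324% (Ermn) to 3.13%, the upper bound of Olig2, with a median of 0.448% and 3 genes at bounds.

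The medians of the Schwann cell and further oligodendrocyte lists were larger. Schwann cell genes with such a mean stood at 4.32% to 126% in old macrophages (n = 15, median 34.5%) and 0.0134% to 186% in young ones (n = 16, median 9.91%). The further oligodendrocyte genes stood at 3.21% to 318% in old (n = 23, median 15.7%) and 0.0900% to 84.8% in young macrophages (median 6.91%). Pmp22, a Schwann cell myelin protein, was 52.9% of the nonmacrophage level in old and 18.7% in young macrophages. These shares describe groups of genes, and the difference between the groups was not tested.

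By the same test, 16 of the 25 further oligodendrocyte genes were lower in old macrophages and 1 was higher (median log2 difference -2.91). For 16 Schwann cell genes 8 were lower and none higher (median -1.77). Bcas1, a marker of newly myelinating oligodendrocytes, was lower by a log2 difference of -4.32 (SE 0.37, limma adjusted p = 1.1e-05). Pmp22 did not pass (-0.97, SE 0.41, limma adjusted p = 0.13). In young cochleae 22 of 25 and 14 of 16 were lower and none was higher, with medians of -5.07 and -4.24.

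**Figure D3:**
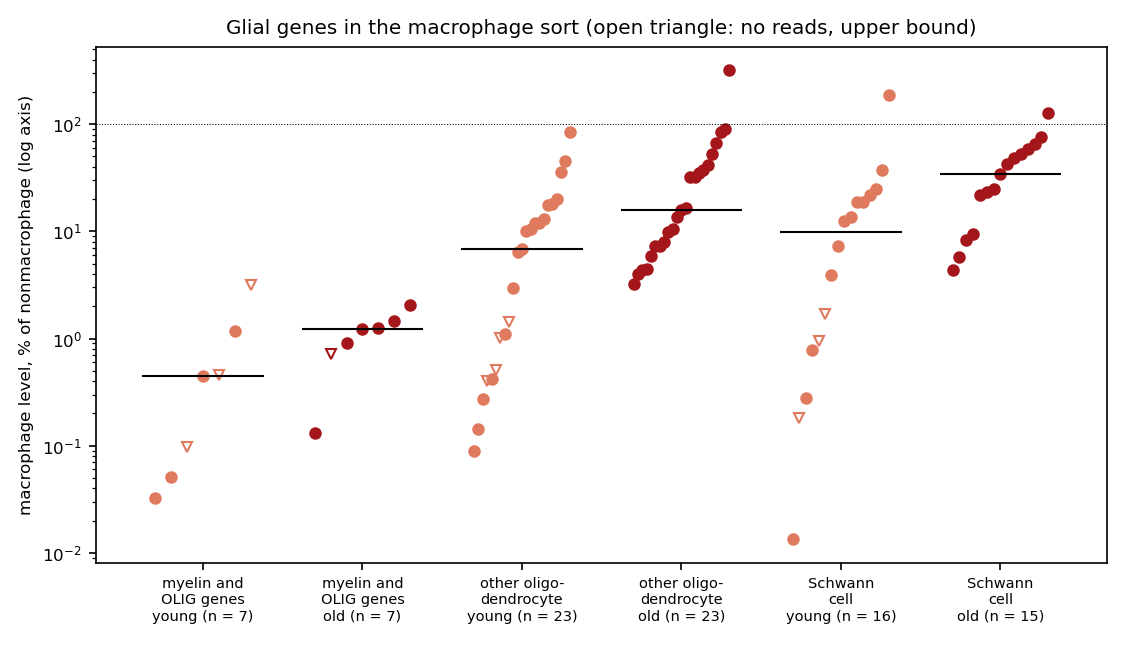
Macrophage level as a percent of the nonmacrophage level (log axis) for the 7 genes of the set and for 2 fixed glial lists, by age, among genes with a nonmacrophage mean of at least 100 normalized reads. Each point is a gene, open triangles are upper bounds of genes with no read in macrophages, and bars are medians. The medians are 0.448% and 1.23% for the set, 6.91% and 15.7% for the other oligodendrocyte genes, and 9.91% and 34.5% for Schwann cell genes.

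Age was compared next within the nonmacrophages. None of the 8 genes passed (limma), where 1.72% of all genes did, 1.64% as higher and 0.0813% as lower in old. At a limma p under 0.05 before adjustment there were 3, namely Mobp, Klk6 and Mog, where 23.1% of all genes were past that line. On the whole reads edgeR called 0 of the 8, but it called only 3 genes in all. DESeq2 called Mobp, Klk6 and Mog, where it called 9.69% of 17113 genes.

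Mobp, at 11358 to 82381 normalized reads in the 4 young and 130049 to 200600.0 in the 4 old libraries, was the only gene of the 8 whose age groups did not overlap, as was so for 12% of all genes in that direction and 5.39% in the other. Its log2 difference was 2.13 (SE 0.56, 95% interval 0.92 to 3.35, limma adjusted p = 0.075; DESeq2 adjusted p = 0.027). Mog pointed the other way, with 978 to 11152 in young and 369.6 to 1255 in old libraries, a difference of -2.23 (SE 1.02, limma adjusted p = 0.21; DESeq2 adjusted p = 0.043). Klk6 went with Mog, at 1005 to 10416 and 422 to 1648, with -1.95 (SE 0.77, limma adjusted p = 0.16; DESeq2 adjusted p = 0.025). In both Mog and Klk6 young replicate 14 lay inside the range of the old libraries.

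The lineage factors and the remaining genes overlapped widely between ages. The log2 differences were 0.34 for Olig1 (95% interval -1.52 to 2.20), 0.85 for Olig2 (-0.71 to 2.41) and 0.26 for Ermn (-1.10 to 1.62). They were 0.17 for Hapln2 (-1.59 to 1.92) and 0.13 for Opalin (-2.45 to 2.70). The intervals are wide, so these libraries could not resolve changes inside them. The median of all genes was 0.39.

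Single libraries decided these calls. Without young replicate 14, Mobp (2.52, limma adjusted p = 0.011) and Klk6 (-2.51, limma adjusted p = 0.036) passed, and 3562 genes passed in place of 318. Mobp also passed when old macrophage replicate 17 or young macrophage replicate 9 or 15, which enter the shared spread, was left out (adjusted p 0.0455 to 0.0477). Replicate 14 was the only deep young nonmacrophage library. Among libraries over 40 M reads, that library against the 4 old ones gave differences of 0.98 for Mobp, -0.58 for Mog and -0.29 for Klk6. These rest on a lone young library with no spread of its own, so they are values and no test. With every library thinned to 20 M reads the differences were 2.13, -2.22 and -1.97. Outside replicate 14, age and depth cannot be told apart.

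Ratios within a library do not depend on its scaling. Mobp over Mog was 4.45, 3.98, 14.6 and 84.2 in young nonmacrophage replicates 2, 5, 6 and 14, and 352, 263, 263 and 160 in old replicates 10, 11, 18 and 19. The nerve nonmacrophages (5.34) resembled the lower young libraries, and the unsorted young cochlea (83.3), at 20.6 M reads, stood with young replicate 14. That library differs from the others in sort as well, and the part of depth or sort was not tested. The age groups did not overlap.

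Mog over Klk6, in contrast, was 0.73 to 1.08 in the 8 sorted whole-cochlea nonmacrophage libraries and the nerve, and 1.32 in the unsorted cochlea. These 2 genes kept nearly the same proportion while Mog ran from 369.6 to 11152 normalized reads. Ermn over Mog was 0.459 to 2.65 in young and 4.60 to 8.18 in old nonmacrophages, which was likewise not set against other gene pairs. Olig1 over Olig2 was 5.89 to 18.4 in young and 5.90 to 13.4 in old ones, which overlap.

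**Figure D4:**
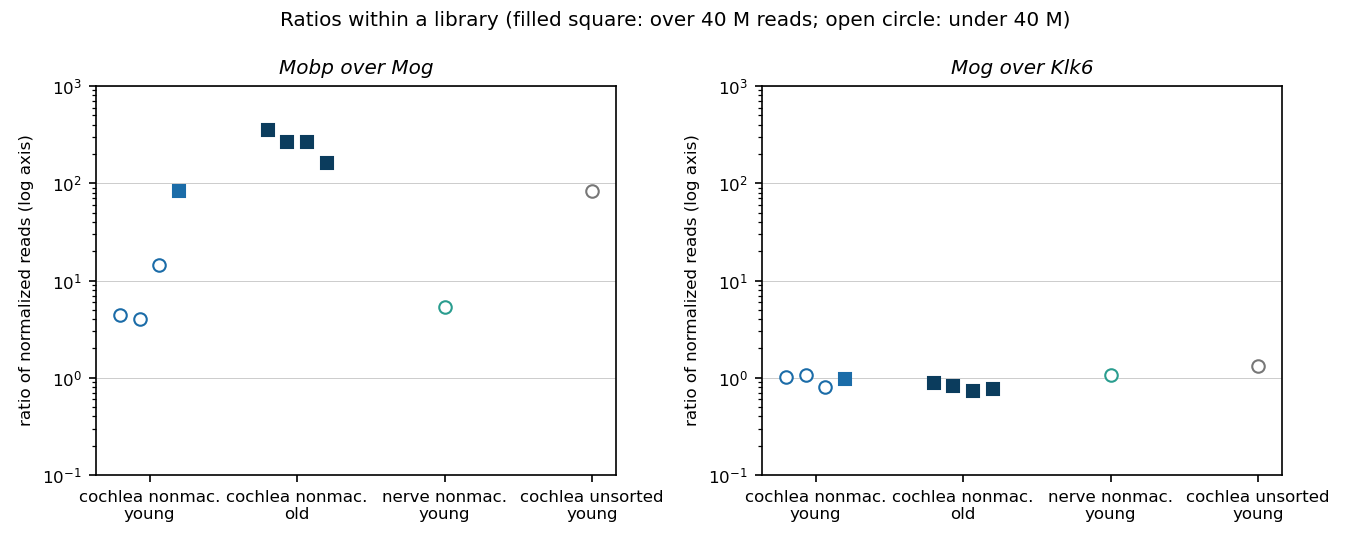
Ratios of normalized reads within each library (log axis), Mobp over Mog on the left and Mog over Klk6 on the right, for nonmacrophages of the whole cochlea by age, nonmacrophages of the nerve and the unsorted cochlea. Filled squares are libraries over 40 M reads and open circles those under. The left ratio runs from 3.98 to 352, and the right one from 0.73 to 1.32.

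Of the 25 further oligodendrocyte genes 1, Bcas1, was higher in old nonmacrophages (1.71, SE 0.37, limma adjusted p = 0.038) and none lower. Bcas1 had 22155 to 45673 normalized reads in young and 91165 to 124148 in old libraries, so that, like Mobp, its age groups did not overlap. None of the 16 Schwann cell or 12 precursor genes passed. Of 13 macrophage genes 2 were higher in old nonmacrophages, Cx3cr1, the locus that carries GFP (3.85, SE 0.54, limma adjusted p = 0.0028), and Mrc1, a mannose receptor (3.74, SE 0.50, limma adjusted p = 0.0020). Cx3cr1 had 1.63 to 4.28 normalized reads in young and 26.8 to 102 in old nonmacrophages, and Mrc1 1.07 to 1.78 and 16.6 to 59.3. The young values lie close to the pseudocount, so the size of both differences depends on it.

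In macrophages the age comparison rested on few or no reads for most of the 8 genes. Of the 8 genes 5 were higher in old than in young macrophages (limma), where 24.1% of all genes were higher, 5.57% lower and 29.7% differed in either direction. The groups of those 5 did not overlap, as for 31.7% of all genes. With library quality weights, which count the young macrophage libraries little, 0 of the 8 passed, but far fewer of all genes passed as well. With pseudocount 10 only 2 of the 8 passed, and the share of all genes at that setting is not given here. For 4 of the 5 genes the young libraries held 0 to 2 reads together. The median of all genes was itself 0.88, and that of the 6 genes with reads was 3.19, or 2.19 with the genes absent from young macrophages at their bounds. With quantile normalization, which moved the median of all genes to -0.07, 1 of the 8 was higher and 1 lower, and over all genes 2292 were higher and 2277 lower, against 4441 and 1027.

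Ermn was at 0 and 2.26 normalized reads in young and 12.0 to 101 in old macrophages, a log2 difference of 4.49 (SE 0.77, limma adjusted p = 0.00096). Mobp was at 212 and 199.8 against 1184 to 5496, a difference of 3.22 (SE 0.69, limma adjusted p = 0.0042). Olig1 was at 1.76 and 0 against 6.41 to 89.8, with 3.80 (SE 1.05, limma adjusted p = 0.018). Of these 3, only Mobp rested on more than 2 reads in the young libraries, and by quantile normalization only Mobp passed (2.47, limma adjusted p = 0.031), while Ermn gave 0.47 and Olig1 -0.86.

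The ratios of read rates were 34.6 for Ermn (95% counting interval 9.52 to 287) and 50.3 for Olig1 (8.94 to 1994). Hapln2 and Klk6 had no read in young macrophages and 2.57 to 19.4 and 1.92 to 12.8 normalized reads in old ones. They passed (limma, 3.16, SE 1.00, adjusted p = 0.031, and 3.00, SE 0.94, adjusted p = 0.030), but against 3 reads per library they were only at least 2.23-fold and 1.94-fold higher. Each of both calls ended without old macrophage replicate 7, 12 or 17 or young replicate 9 (adjusted p 0.055 to 0.080), and that of Olig1 without young replicate 15 (adjusted p = 0.059).

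Mog was the exception, at 1.76 and 103 normalized reads in young macrophages and at most 1.63 in the 4 old ones. The groups did not overlap, in the lower direction, as for 13.4% of all genes. The difference of -3.21 (SE 1.25, limma adjusted p = 0.069) did not pass, although edgeR (adjusted p = 0.0058) and DESeq2 (adjusted p = 3.8e-05) called it lower in old. It rested on replicate 15, without which it was -0.59. That library held 103 normalized reads of Mog, 199.8 of Mobp, 2.26 of Ermn and no Klk6, whereas Mog over Klk6 was at most 1.32 in the nonmacrophages of the cochlea and nerve and the unsorted cochlea. Olig2 and Opalin had no read in any macrophage library, which gives no age difference.

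Markers of other cells moved in the same comparison. Of 16 Schwann cell genes 11 were higher in old macrophages, with summed levels of 47263 to 51220.2 normalized reads in the 2 young and 62717 to 155411 in the 4 old libraries. Of the 25 further oligodendrocyte genes 10 were higher and 2 lower, of 12 astrocyte genes 5 were higher, and of 16 neuron genes 4. Macrophage genes fell in 2 of 13 and their sum was 803916 and 993236 in young against 209028 to 349721 in old libraries. Reads fell in 11652 and 13532 genes in the young macrophage libraries and in 16750.0 to 17282 genes in the old ones, at lower depth in the young. Their part in the higher values of the 5 genes was not tested. With every library thinned to 20 M reads the same count, 5 of 8, passed. The share of all genes at that setting is not given here.

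Whether the age difference itself differed between the sorts was tested as an interaction. Of the 8 genes 2 passed, both with the larger age difference in macrophages (limma), where 6.98% of all genes did in that direction and 7.94% in either. They were Ermn (4.23, SE 1.00, adjusted p = 0.018) and Klk6 (4.96, SE 1.22, adjusted p = 0.022). Olig1 (3.46, SE 1.36, limma adjusted p = 0.15), Hapln2 (2.99, SE 1.29, limma adjusted p = 0.19), Mobp (1.08, SE 0.89, limma adjusted p = 0.50) and Mog (-0.98, SE 1.62, limma adjusted p = 0.76) did not pass. The Klk6 value combines -1.95 in nonmacrophages with 3.00 in macrophages, where the young libraries had no read, so its size depends on the pseudocount, and the call ended without old nonmacrophage replicate 10 (adjusted p = 0.055). Neither gene passed with pseudocount 10, quality weights or quantile normalization. In the last the calls over all genes were 415 higher and 223 lower, against 1288 and 176.

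Over all 19 libraries Pearson's r of each gene with the average log2 level of the 8 ran from 0.88 (Opalin) and 0.92 (Mog) to 0.99 (Hapln2). Each of the 8 is part of that average, which raises its r. These values therefore do not compare with those of genes outside the 8. The genes considered numbered 16305, the 8 included. Outside the 8, those most like that average included 1700113H08Rik (r = 0.97), 1700063D05Rik (0.97) and Serpind1 (0.97), followed by Dbndd2 and Mbp (0.95 each). Cnp, a central myelin enzyme, had 0.95, and Nkx6-2, an oligodendrocyte homeobox factor, 0.94. Mbp encodes myelin basic protein, which both kinds of myelinating glia make. These coefficients describe 19 libraries that share the contrast between sorts and tissues, which sets most of their size. Over the 8 whole-cochlea nonmacrophage libraries alone, r was 0.99 between Mog and Klk6 and 0.96 between Olig1 and Ermn, but 0.21 between Mog and Olig2, -0.63 between Mobp and Mog and -0.58 between Mobp and Klk6. Those libraries share the split by age and depth.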

How the data were processed

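RNA from 19 isolates was sequenced. Library kits were SMARTer Ultra and Nextera XT, per the labels' protocols, which also say that low-quality RNA was excluded and that a subset was sequenced again. Tools named in the submitters' processing notes, with no versions, are TopHat2, Partek and DESeq2, and the build is mm10. For each of 18639 gene symbols the authors' deposited table gave a signal per library, which the values show to be reads scaled by 1 factor per library. The step between low values gave the worth of 1 read, and so whole reads: 99.89% of all values above 0, and 100% of those under 10000 reads, were whole within 0.1 read, and the factors lay within 0.087% of recomputed size factors.

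Differences come from limma (3.58.1, trend and robust variance) on log2(value + 1), with the 14 sorted libraries of the whole cochlea in 4 groups, a shared spread and 5 contrasts. A gene entered with at least 2 libraries at 1 or more, as 18441 did, all of the 8 genes included. Adding 1 shrinks the differences of low genes that have reads. Where a group had no read, the size of the difference depends on the pseudocount and can exceed the bound from 3 reads. For old against young macrophages the log2 difference was 3.16 against a bound of 1.16 for Hapln2, and 3.00 against 0.96 for Klk6. The Benjamini-Hochberg threshold was 0.05. Single libraries were set side by side with exact 95% counting intervals and no test. The 8 genes, the cell type lists and the motifs were chosen with earlier results of these data known. From each list the 2 genes with the highest mean and the 2 with the smallest adjusted p could be named, and for likeness the 8 genes with the highest r among those reaching 20 normalized reads in 2 libraries. Alternatives were other pseudocounts (0.1, 10), filters (none, 10), scalings, quality weights, only the groups compared, edgeR 4.0.16 and DESeq2 1.42.0 on whole reads, thinning to 20 M reads and each library left out. The comparison of libraries over 40 M reads was added after seeing the data. The fits were tested on simulated data. Values of some genes that this rule names are not reported here.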

Additional observations from a re-analysis of the deposited data

Results flagged for a closer look

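Mobp in old macrophages had 1 library far above the rest: replicate 17 held 5496 normalized reads, and the other 3 held 1184, 1730.4 and 1212. The gap to its nearest neighbour was 0.873 of the group's range. Of the 22 groups of 4 libraries examined this was the only 1 so placed, and chance gives about 1 in 20.

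The age difference of Ermn was larger in macrophages than in nonmacrophages by 4.23 on the log2 scale (limma interaction, adjusted p = 0.018), with 343 reads of Ermn over the 4 old and 2 over the 2 young macrophage libraries. That of Klk6 was larger by 4.96 (limma interaction, adjusted p = 0.022), with 61 reads in old and none in young macrophages.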

How the results depend on the processing

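Of 36 differences of single genes, 12 other settings gave 342 values with the same direction and call, 28 no longer past the threshold, 11 newly past it and 17 in the other direction. With 1 of 14 libraries left out these were 472, 17, 7 and 8. No paired analysis was possible because the replicate numbers run from 1 to 19 over the series and no number is shared. In macrophages most of the 8 genes had few or no reads, at every depth, which limits the precision there.

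With library quality weights, which gave each young macrophage library a weight of 0.0666, genes called were 11167 (old sorts), 575 (young sorts), 362 (age in macrophages), 190 (age in nonmacrophages) and 148 (interaction), and 0 of the 8 were called in the young sort, age in macrophages and interaction comparisons, with all 7 young sort differences still negative (-11.95 to -7.01). With only the groups compared, genes called were 10654 (old sorts), 1426 (young sorts) and 175 (age in nonmacrophages). With pseudocount 10, 2 of the 8 were called for age in macrophages and 0 for the interaction, with no count over all genes given here. With quantile normalization these were 2 and 0, and genes called were 89 for age in nonmacrophages and 638 for the interaction. DESeq2 called 3 of the 8 and 1659 genes for age in nonmacrophages, and 4 of the 8 and 2978 genes for the interaction. For age in nonmacrophages edgeR called 3 genes and the libraries over 40 M reads 135. The cause was not tested.

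Leaving out 1 library gave 7 to 8 of the 8 genes and 2369 to 5477 genes in all for the old sorts, 7 to 8 and 5028 to 7984 for the young sorts, 3 to 5 and 4206 to 8490.0 for age in macrophages, 0 to 2 and 167 to 3562 for age in nonmacrophages, and 1 to 2 and 1116 to 5369 for the interaction. The highest counts of genes came without young macrophage replicate 9 (old sorts), young macrophage replicate 15 (age in macrophages, interaction) or young nonmacrophage replicate 14 (age in nonmacrophages).

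Directions turned for age in macrophages with quantile normalization (Olig1 -0.86, Klk6 -0.017). For age in nonmacrophages they turned for Olig1 with quality weights (-0.22), edgeR (-0.062) and DESeq2 (-0.070), and for Hapln2 with quantile normalization (-0.035), quality weights (-0.46), edgeR (-0.30) and DESeq2 (-0.30). Opalin turned with pseudocount 10 (-0.28), quantile normalization (-0.95), quality weights (-0.73), edgeR (-1.07), DESeq2 (-1.08) and thinning (-0.17). In the interaction Olig1 turned with quantile normalization (-1.13) and Mog with pseudocount 10 (0.47). With a library left out the ranges across 0 were -0.19 to 0.92 (Olig1), -1.11 to 1.18 (Opalin) and -0.51 to 0.78 (Hapln2) for age in nonmacrophages, and -3.60 to 1.64 for Mog in the interaction.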
